A study of Mus musculus with 36 samples.

Results

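Cas9 ChIP-seq peaks of the mouse genome that lie over annotated genes numbered 329 of the 822 peaks in 6 peak lists, or 40.02%. Whether Cas9 bound each of these regions was not tested here. A peak counted when it lay on chromosome 1 to 19, X or Y, did not start within the first 3100000 bases of chromosome 9, and shared at least 1 base with a gene of the deposited gene table. Of the other peaks, 179 lay on unplaced scaffolds or the mitochondrial genome, 84 lay at the start of chromosome 9 and 230 lay between genes. The 329 peaks fell into 153 separate loci and covered 150 genes, of which 136 were protein coding. No RNA level, fold or test result entered this choice.

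The study tested CRISPR activation of Sim1 in mice with 1 working copy of that gene, and its design text names the search for off-target sites as one purpose. Hypothalamus RNA libraries came from 19 mice aged 3 to 9 months in 4 groups: 4 Sim1 +/- mice with an enhancer sgRNA, 6 Sim1 +/- mice with a promoter sgRNA, 4 Sim1 +/- mice with no sgRNA (Sim1 heterozygous) and 5 wild-type mice with none. Sim1 heterozygous F_3 and wild type F_2 were of the B6 strain and the others B6/FVB, where the letter gives the sex and the number the animal. Cas9 ChIP-seq used hypothalamus of adult Sim1 +/- mice with either sgRNA, with an antibody to S. pyogenes Cas9 (SpCas9) or to S. aureus Cas9 (SaCas9), and from Neuro2A, a mouse neuroblastoma line, with the SpCas9 antibody. The labels of the Neuro2A samples also carry the mouse genotype, strain and age, and these samples were taken as the cell line from their source name, so what is said of Neuro2A rests on that label. By the labels the enhancer ChIP samples pooled males and females and the promoter ChIP samples were female, so sgRNA and sex cannot be told apart in the peak lists. Each condition has 1 deposited list, so differences between lists have no replicate check, and no Neuro2A RNA was among the samples.

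In CRISPR activation, a Cas9 that cannot cut DNA carries an activating domain to the site that its guide RNA matches. Cas9 also binds sites with a partial match, often through the seed, the guide bases next to the PAM, and binding need not alter a gene there. Chromatin precipitation also recovers DNA that binds no Cas9, mostly from open, highly transcribed or repeated sequence. Sim1 encodes a transcription factor of hypothalamic neurons that control feeding.

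The promoter windows below are of genes with a peak within 1 kb of their start. They do not show how common such peaks were, and that count is given further below. Each runs from 250 bases before to 50 after the start of the gene in RefSeq (GRCm38.p6), 5′ to 3′ on the gene's strand, and capitals mark bases within 25 of the summit of a Cas9 peak in any list. Med16, a subunit of the Mediator complex, is at chr10:79908889-79909188 on the minus strand and was overlapped in 6 lists. BC016579 is at chr16:45654069-45654368 on the minus strand and was overlapped in 4. Its capitals mark only the SaCas9 enhancer summit (fold 3.66), 8 bases inside the gene. Its summits in the other lists, with folds up to 40.3, lay 89 or 231 bases inside the gene and outside the window. Klk6, a secreted serine protease, is at chr7:43824294-43824593 on the plus strand and was overlapped in 3. Ube2d3, a ubiquitin-conjugating enzyme, is at chr3:135438876-135439175 on the plus strand and was overlapped in 2. Its start in the gene table, at 135438149, is not the RefSeq start of this window, and its peaks lay 744 and 769 bases from the former.
Med16: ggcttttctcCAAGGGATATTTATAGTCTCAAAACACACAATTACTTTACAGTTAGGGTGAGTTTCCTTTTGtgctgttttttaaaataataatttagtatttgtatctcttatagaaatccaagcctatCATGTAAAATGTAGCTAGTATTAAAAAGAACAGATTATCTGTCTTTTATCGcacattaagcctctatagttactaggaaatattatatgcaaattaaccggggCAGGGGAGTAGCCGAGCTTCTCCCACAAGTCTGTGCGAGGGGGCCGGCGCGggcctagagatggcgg
BC016579: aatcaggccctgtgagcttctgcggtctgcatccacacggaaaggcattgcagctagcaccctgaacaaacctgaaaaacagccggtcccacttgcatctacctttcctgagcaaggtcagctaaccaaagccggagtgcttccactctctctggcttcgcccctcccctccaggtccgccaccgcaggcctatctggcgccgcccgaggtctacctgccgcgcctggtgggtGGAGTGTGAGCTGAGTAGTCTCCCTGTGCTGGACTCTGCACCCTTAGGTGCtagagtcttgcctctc
Klk6: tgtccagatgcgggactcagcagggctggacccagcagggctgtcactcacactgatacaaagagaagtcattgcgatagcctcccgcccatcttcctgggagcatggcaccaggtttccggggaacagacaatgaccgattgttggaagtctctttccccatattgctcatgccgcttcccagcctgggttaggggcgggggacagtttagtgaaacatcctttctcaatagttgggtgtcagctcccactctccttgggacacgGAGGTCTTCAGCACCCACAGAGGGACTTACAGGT
Ube2d3: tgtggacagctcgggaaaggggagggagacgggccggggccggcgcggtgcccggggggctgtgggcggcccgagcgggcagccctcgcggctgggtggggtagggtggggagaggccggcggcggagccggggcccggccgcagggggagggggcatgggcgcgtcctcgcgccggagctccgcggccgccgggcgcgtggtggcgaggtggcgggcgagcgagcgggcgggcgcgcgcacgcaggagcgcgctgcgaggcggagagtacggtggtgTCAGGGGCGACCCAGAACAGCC
The GC content of these windows was 39.3% for Med16, 60.0% for BC016579, 55.7% for Klk6 and 81.0% for Ube2d3, against a median of 52.7% over all 32851 promoters of the table. GGGCGG, on either strand, occurred in the windows of BC016579, Klk6 and Ube2d3 and in 35.7% of all promoters. TATAAA, on either strand, occurred in the Med16 window and in 13.6% of all promoters. CCAAT, on either strand, was in none of these 4 windows and in 37.4% of all promoters.

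Between 53.1% and 63.4% of the peaks on placed chromosomes lay over genes, while the genes of the table cover 38.0% of the annotated span (1027 of 2703 Mb). With the SpCas9 antibody in hypothalamus, 69 of 130 peaks (53.1%, exact binomial 95% interval 44.1 to 61.9%) lay over genes with the enhancer sgRNA and 52 of 84 (61.9%, 50.7 to 72.3%) with the promoter sgRNA. With the SaCas9 antibody the counts were 37 of 62 (59.7%, 46.4 to 71.9%) with the enhancer sgRNA and 52 of 82 (63.4%, 52.0 to 73.8%) with the promoter sgRNA. In Neuro2A they were 79 of 136 (58.1%, 49.3 to 66.5%) with the enhancer sgRNA and 40 of 65 (61.5%, 48.6 to 73.3%) with the promoter sgRNA. The 6 intervals overlap one another. They cover counting error only, take each peak as independent, and the lists share loci. Neighbouring peaks within a list, as over Gm26917 and Gm42418, are not independent, so the intervals can be too narrow.

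**Figure D1:**
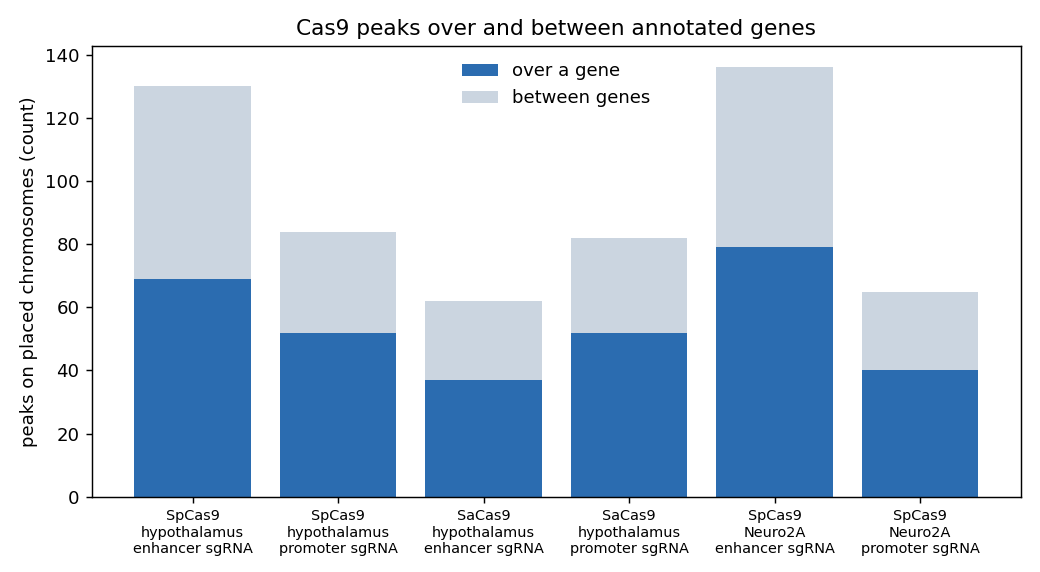
Peaks on placed chromosomes in each of the 6 lists (count), split into those over an annotated gene and those between genes. The gene-overlapping part ran from 37 peaks (SaCas9, hypothalamus, enhancer sgRNA) to 79 (SpCas9, Neuro2A, enhancer sgRNA).

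Fold enrichment, the authors' value for each peak, differed more between lists than the share over genes did. The median fold of gene-overlapping peaks was 9.66 with the enhancer sgRNA and 12.5 with the promoter sgRNA for SpCas9 in hypothalamus. It was 2.62 with the enhancer sgRNA and 4.29 with the promoter sgRNA for SaCas9 in hypothalamus. In Neuro2A it was 12.4 with the enhancer sgRNA and 3.38 with the promoter sgRNA. The median pileup, the signal at the summit, ran the other way. For the enhancer and then the promoter sgRNA it was 24.0 and 23.5 for SpCas9 in hypothalamus, 131 and 73.5 for SaCas9, and 45.0 and 98.0 in Neuro2A. Lists of lower fold thus did not have a lower signal at the summit, and the cause was not tested. A fold under 5 was held by 4.35% and 13.5% of the SpCas9 hypothalamus peaks (enhancer, then promoter sgRNA), by 91.9% and 59.6% of the SaCas9 peaks and by 13.9% and 72.5% of the Neuro2A peaks. In 4 of the 6 lists the median fold was lower over genes than between them: 12.5 over genes and 16.9 between genes for SpCas9 in hypothalamus with the promoter sgRNA, 2.62 and 3.37 for SaCas9 with the enhancer sgRNA, 4.29 and 5.34 for SaCas9 with the promoter sgRNA, and 3.38 and 3.90 for Neuro2A with the promoter sgRNA. It was higher over genes in the other 2, at 9.66 over genes and 7.97 between genes for SpCas9 in hypothalamus with the enhancer sgRNA and 12.4 and 10.6 for Neuro2A with the enhancer sgRNA.

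**Figure D2:**
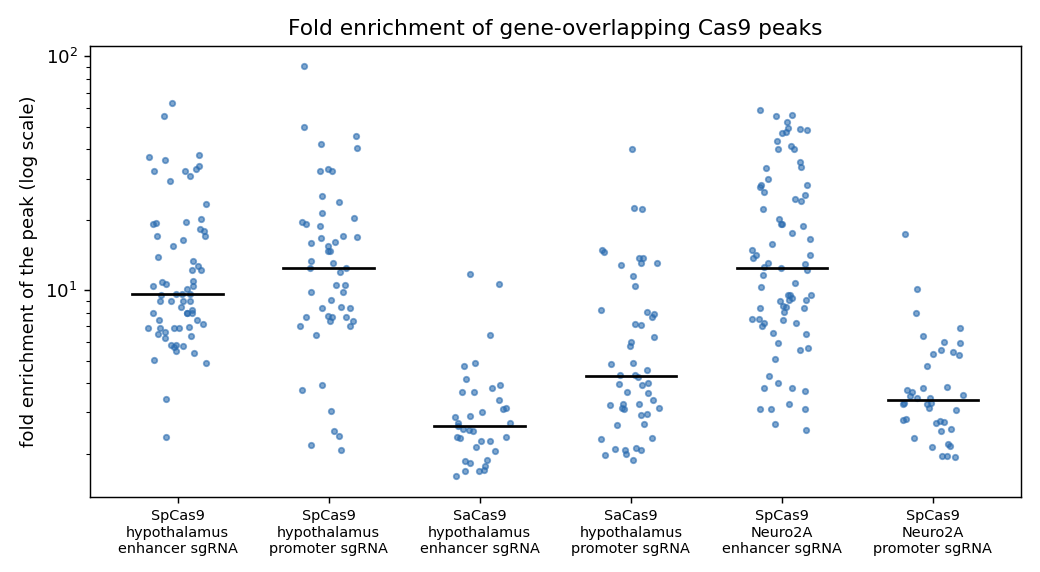
Fold enrichment (log axis) of each gene-overlapping peak by list; the bar is the median. The SaCas9 lists and the Neuro2A promoter list sit lower, with medians between 2.62 and 4.29, than the other 3 lists, with medians between 9.66 and 12.5. Median pileups, not drawn, were higher in the former (73.5 to 131) than in the latter (23.5 to 45.0).

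The genes under peaks were long. The 136 protein-coding ones had a median span of 91.2 kb, against 23.1 kb for protein-coding genes of the table, and 46.3% were longer than 100 kb, against 14.0%. A base drawn at random from protein-coding genes would lie in a gene with a median span of 148 kb, and 61.5% of such bases lie in genes over 100 kb, so the hosts were shorter than that comparison gives. Among 172 pairs of a locus and a gene, the summit lay inside the gene in 165, with 52, 26, 36 and 51 of these in the 4 successive parts, each 25% of its length, from its start. In all, 21 of the 172 pairs had a peak within 1 kb of the gene's start.

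Some of the strongest peaks of the series lay just outside this set. In every list a peak at chromosome 10 ended 37 to 50 bases before the start of Sim1 in the gene table, with folds between 38.0 (SaCas9, hypothalamus, enhancer sgRNA) and 174.5 (SpCas9, hypothalamus, promoter sgRNA). Those peaks overlap no gene of the table and so are not members. A peak beside Prkag2, which encodes a subunit of AMP-activated protein kinase, lay 1212 bases from the gene with the enhancer sgRNA (fold 99.4) and 1199 with the promoter sgRNA (fold 174.6), both SpCas9 in hypothalamus. Just inside, peaks over Dffb, which encodes the nuclease that cuts DNA in apoptosis, overlapped that gene by 2 to 4 bases in 3 lists.

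Of the 153 loci, 76 were in 1 list, 30 in 2, 22 in 3, 16 in 4, 3 in 5 and 6 in all 6. Loci in lists of both sgRNAs numbered 71, those in enhancer lists only 62 and those in promoter lists only 20. The enhancer list held more gene-overlapping peaks for SpCas9 in hypothalamus (69 against 52) and in Neuro2A (79 against 40), and fewer for SaCas9 (37 against 52). Loci in hypothalamus lists only numbered 64, those in Neuro2A lists only 36 and those in both 53. SpCas9 in hypothalamus gave 41 loci shared between the sgRNAs, which is 61.2% of the 67 enhancer loci and 83.7% of the 49 promoter loci. By contrast the SpCas9 and SaCas9 lists of the same sgRNA and tissue shared 10 loci for the enhancer sgRNA (14.9% of 67 and 27.0% of 37) and 13 for the promoter sgRNA (26.5% of 49 and 26.0% of 50). The SaCas9 enhancer list from hypothalamus shared 30 loci with the SpCas9 promoter list from Neuro2A, which is 81.1% of 37 and 78.9% of 38, although antibody, tissue and sgRNA all differ between them.

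Among the 47 loci in 3 or more lists, 22 had no peak in either SpCas9 hypothalamus list, and 18 of those 22 were in both SaCas9 lists and the Neuro2A promoter list. They include 5 neighbouring loci over Sfi1 and Drg1 on chromosome 11 with folds between 1.68 and 2.53, and loci over Chl1, Mdga2 and Kctd16. Another 20 of the 47 were in both SpCas9 hypothalamus lists, 17 of those 20 also in the Neuro2A enhancer list and 8 in neither SaCas9 list. Those 8 include Lrsam1, a ubiquitin ligase, with folds of 37.2 (enhancer sgRNA) and 42.3 (promoter sgRNA) in hypothalamus and 43.3 in Neuro2A with the enhancer sgRNA. In 16 of the 47 loci the summits of all lists lay within 10 bases of each other.

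**Figure D3:**
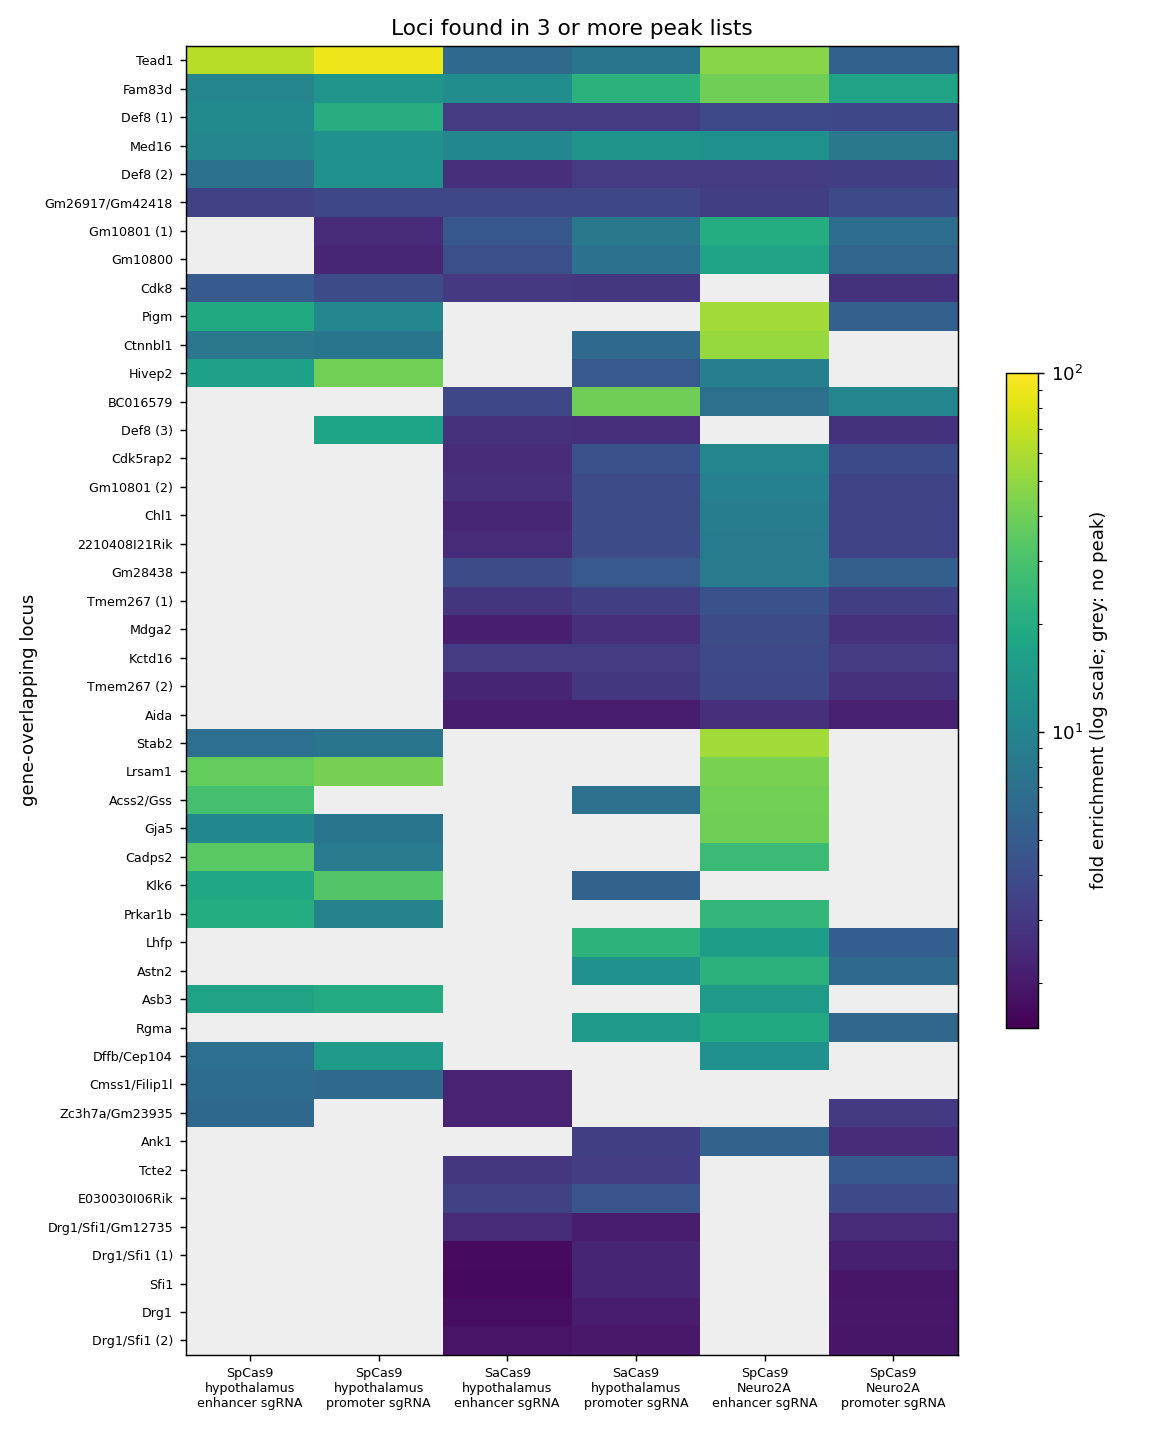
Fold enrichment (colour, log scale; grey for no peak) of 46 of the 47 loci found in 3 or more lists, 1 row per locus named by its genes and 1 column per list. Of the 46, 22 are grey in both SpCas9 hypothalamus columns, and 6 have a peak in every column.

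The 6 loci in every list lay over Tead1, Fam83d, Med16, Def8 (2 loci) and Gm26917 with Gm42418. Tead1 encodes a transcription factor that works with the Hippo pathway's YAP. Its peak, at chr7:112779428-112780117 and about 100 kb inside the gene, had the highest fold of any gene-overlapping peak: 63.4 with the enhancer sgRNA and 90.5 with the promoter sgRNA for SpCas9 in hypothalamus, and 6.45 and 7.67 for SaCas9. In Neuro2A it was 47.3 with the enhancer sgRNA and 5.54 with the promoter sgRNA. Fam83d encodes a protein of the mitotic spindle. Its peak lay at chr2:158775956-158776554, its 6 summits spanned 3 bases, and its folds were 10.1, 11.7 and 40.2 in the enhancer lists (SpCas9 hypothalamus, SaCas9 hypothalamus, Neuro2A) and 13.3, 22.2 and 17.3 in the promoter lists in the same order. The Med16 peak covered the gene's start in all 6 lists, with folds between 8.00 and 13.1. Def8 encodes a protein linked to lysosome positioning, and its 2 loci at every list spanned chr8:123426179-123430610 and chr8:123430850-123432346. Gm26917 and Gm42418 on chromosome 17 are annotated as lincRNA and lie in ribosomal RNA sequence, and peak widths there reached 6060 bases.

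By the authors' q-value the top gene-overlapping peak was over Tead1 in both SpCas9 hypothalamus lists and over Gm10801 in the other 4. After Tead1 the enhancer list held Atg16l2 (fold 55.8), Lrsam1 (37.2) and Tlr9 (37.7), which encodes a receptor for unmethylated DNA. The promoter list held Tex2 (49.99), Tlr9 (45.6), Lrsam1 (42.3) and Hivep2 (40.7), a zinc-finger transcription factor. In Neuro2A with the enhancer sgRNA, Stab2 (56.2), a scavenger receptor, Pigm (55.8), an enzyme of GPI anchor synthesis, and Tmem45b (58.9) followed Gm10801 and Gm10800. The top Gm10801 locus had a pileup (signal at the summit) of 376 to 427 in 5 lists. Its fold ran from 2.4969 (SpCas9, hypothalamus, promoter sgRNA) to 20.2 (Neuro2A, enhancer sgRNA). Gm10800 had pileups of 370 to 414 and folds from 2.37 to 17.5 in the same lists. Whether Cas9 bound these loci, or repeated sequence was recovered there, was not tested. The SaCas9 promoter list held BC016579 (40.3), whose fold was 3.66 in the SaCas9 enhancer list and which had no peak in either SpCas9 hypothalamus list. Lepr, the leptin receptor, was chosen after its values were seen: its peak at chr4:101737292-101737853 had folds of 9.56 with the enhancer sgRNA and 10.5 with the promoter sgRNA, both SpCas9 in hypothalamus, and no other list held it. A peak with the enhancer sgRNA and SpCas9 in hypothalamus also covered Mir6236 on chromosome 9, whose mature miRNA is shown because it is the only member with a RefSeq mature sequence; capitals mark the seed, bases 2 to 8.
mmu-miR-6236: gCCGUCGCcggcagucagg

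All 10 hypothalamic neuron markers, Sim1, Otp, Avp, Oxt, Trh, Pomc, Agrp, Npy, Hcrt and Pmch, were measured in all 19 RNA libraries. Most genes under peaks were transcribed there. Over the 9 mice without an sgRNA, 112 of the 150 (74.7%) averaged at least 100 normalized counts, the deposited reads per gene divided by 1 factor per library. The share was 56.4% over all 22447 genes. Among protein-coding genes it was 77.9% of the 136 under peaks and 72.0% of all 17122. Counts are not per length and the genes under peaks were long, so no difference is read from these shares. Levels are compared only within a gene. In 18 of the 19 libraries the reads could be recovered, and they numbered 14.1 to 56.5 M.

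RNA of the genes under peaks was then compared between groups with limma on log2(normalized count + 1), where 148 of the 150 genes passed a mean of 1 over the 19 libraries. No gene under a peak was called at an adjusted p under 0.05 in any of 3 comparisons, and the background was 0% of 20505 genes in each; edgeR and DESeq2 on recovered reads also called 0 genes under peaks. Enhancer and promoter sgRNA mice were both set against the same Sim1 heterozygous libraries, so those comparisons are not independent. At an unadjusted p under 0.05, 6 of 148 genes passed for promoter sgRNA minus Sim1 heterozygous, or 4.05%, against a background of 4.08%. For enhancer sgRNA minus Sim1 heterozygous, 14 of 148 passed, or 9.46%, against 6.67%, and for enhancer sgRNA minus promoter sgRNA 5 of 148, or 3.38%, against 2.44%. These counts moved with single libraries, and the share over all genes moved with them. The promoter count was 3 of 148 (2.03%) without enhancer F_1, promoter F_1 or promoter F_5, where 3.72%, 3.81% and 3.23% of all genes passed. It was 11 without promoter M_1 (7.43%, against 7.02% of all genes) and 17 without Sim1 heterozygous F_1 (11.5%, against 9.23%). The enhancer count was 5 without Sim1 heterozygous F_3 (3.38%, against 3.36%), 6 without enhancer F_1 (4.05%, against 3.98%) and 7 without enhancer F_2 (4.73%, against 3.76%). It was 25 without Sim1 heterozygous M_1 (16.9%, against 9.67%) and 27 without Sim1 heterozygous F_1 (18.2%, against 13.9%). The enhancer minus promoter count was 8 without promoter F_1 (5.41%, against 3.67%). The 148 genes include some with peaks of the other sgRNA only or of Neuro2A only. Of tested genes with a hypothalamus peak of the sgRNA compared, 3 of 84 passed for promoter (3.57%, against 4.08%) and 11 of 90 for enhancer (12.2%, against 6.67%). For enhancer minus promoter, with peaks of either sgRNA, 3 of 113 passed (2.65%, against 2.44%). How single libraries moved these counts was not examined.

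The median log2 fold change of the 148 genes was 0.06 for promoter sgRNA minus Sim1 heterozygous, 0.09 for enhancer sgRNA minus Sim1 heterozygous and 0.03 for enhancer sgRNA minus promoter sgRNA. Over all genes tested each of these medians was within 0.01 of 0. Positive values were held by 61.5%, 68.2% and 61.5% of the 148, against 50.1%, 50.3% and 51.2% of all genes. Single libraries moved the first and the last of these medians by over 1.5 times. Without Sim1 heterozygous F_3 the promoter median was 0.0056, with positive values in 52.0% of the 148. The enhancer minus promoter median was 0.0095 without promoter M_1, with positive values in 51.4%, and 0.011 without enhancer M_3, 0.021 without promoter F_3, 0.056 without promoter F_5 and 0.078 without promoter M_3. Among the 21 tested of the 22 genes whose start lay within 1 kb of a gene-overlapping peak, the medians were 0.01, -0.03 and -0.11 in the same order. Some summed cell type markers held separate ranges between groups and others overlapped. How many of all genes separate in this way was not counted, so nothing is read from such separations. The astrocyte markers Gfap, Aqp4 and Aldh1l1 (3 of 3 measured) ran from 13942 to 21353 normalized counts with the enhancer sgRNA and from 16472 to 24849 with the promoter sgRNA. They ran from 27977 to 50429 in Sim1 heterozygous mice and from 15761 to 38286 in wild type. The 4 neuron markers summed to 87303 to 128094 with the enhancer sgRNA, 88836 to 139680 with the promoter sgRNA and 63899 to 112147 in Sim1 heterozygous mice, and Sim1 heterozygous F_3 was the lowest. The 4 blood markers Hbb-bs, Hba-a1, Hba-a2 and Alas2 summed to 2902 to 7196 with the enhancer sgRNA, 2522 to 6202 with the promoter sgRNA and 5669 to 19059.5 in Sim1 heterozygous mice. The 3 microglia markers Cx3cr1, P2ry12 and Tmem119 summed to 3097 to 3423 with the enhancer sgRNA and 2507 to 4598 with the promoter sgRNA. They summed to 3538 to 3767 in Sim1 heterozygous mice, so enhancer and heterozygous libraries did not overlap, though by a narrow gap. Wild-type sums ran from 81235.5 to 116753 for neuron, 2653 to 13551 for blood and 3044 to 3802 for microglia markers. The 3 oligodendrocyte markers, in order enhancer sgRNA, promoter sgRNA and Sim1 heterozygous, summed to 93251 to 146587.5, 102351 to 186866 and 99044 to 189843, and so overlapped. The 10 hypothalamic neuron markers (28087 to 62345, 19753 to 73514, 33752 to 91221) and the 4 choroid plexus markers (399 to 779, 409 to 37432, 323 to 904) also overlapped. The part of these cell types in the medians was not tested, and in bulk tissue fewer cells of a type and less RNA per cell cannot be told apart.

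**Figure D4:**
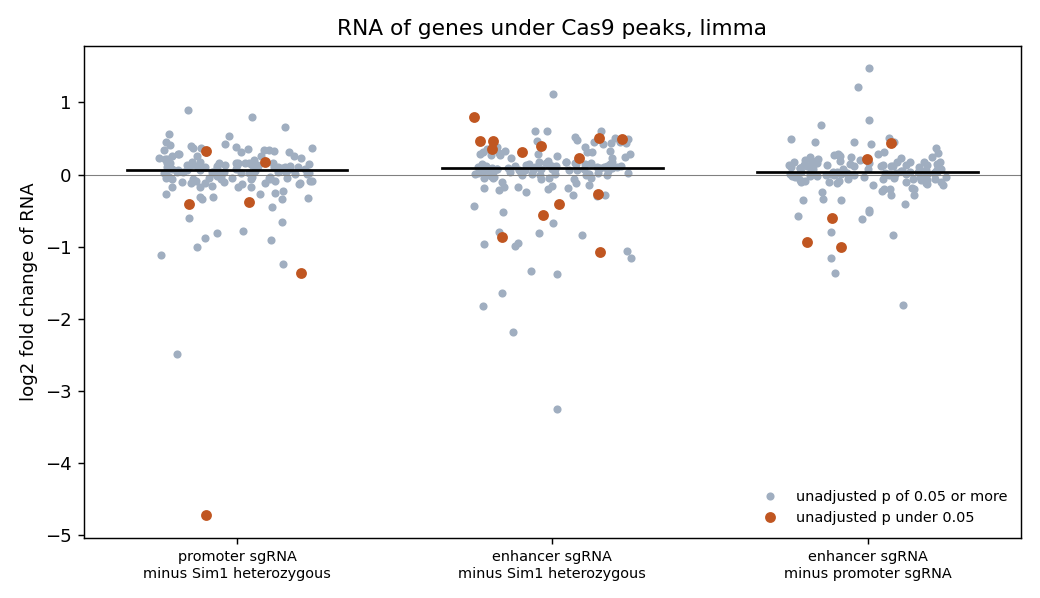
Log2 fold change (limma) of the 148 tested genes under peaks in each comparison; points in orange have an unadjusted p under 0.05 and bars are medians, at 0.06, 0.09 and 0.03. The lowest point in the first comparison is Gm10800 at -4.73.

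None of the genes with a peak in every list passed an adjusted p of 0.05 in any comparison. Med16 RNA stood at 1596, 1692, 1436 and 1658 normalized counts with the enhancer sgRNA (F_1, F_2, M_1, M_3), at 1068 to 1516 with the promoter sgRNA, at 1331, 1504, 1664 and 1474 in Sim1 heterozygous mice and at 1386 to 1618 in wild type. Promoter M_1 was the lowest library, and all groups overlapped. The log2 fold change of Med16 was 0.22 for enhancer sgRNA minus promoter sgRNA (SE 0.102, limma adjusted p = 0.999), 0.11 for enhancer sgRNA minus Sim1 heterozygous (SE 0.113) and -0.11 for promoter sgRNA minus Sim1 heterozygous (SE 0.101). Without promoter M_1 the first was 0.13 and the last -0.036. Without Sim1 heterozygous F_1 the second was 0.055 and the last -0.17, and without Sim1 heterozygous F_4 the last was -0.058.

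Fam83d stood at 58.3, 53.3, 41.9 and 66.9 normalized counts with the enhancer sgRNA (F_1, F_2, M_1, M_3), and at 75.3, 66.2, 71.2, 97.2, 82.9 and 101.2 with the promoter sgRNA (F_1, F_2, F_3, F_5, M_1, M_3). The highest enhancer library, M_3, lay just above the lowest promoter library, F_2, so the groups overlapped. Sim1 heterozygous mice had 62.8, 54.7, 68.7 and 72.4 and wild type 38.0 to 90.7. Its log2 fold change was -0.61 for enhancer sgRNA minus promoter sgRNA (SE 0.233, limma adjusted p = 0.999), -0.29 for enhancer sgRNA minus Sim1 heterozygous (SE 0.257) and 0.32 for promoter sgRNA minus Sim1 heterozygous (SE 0.232). Without enhancer M_1 the second was -0.14.

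Tead1 averaged 1194 ± 255 normalized counts with the enhancer sgRNA (SD, n = 4), 1097 ± 295 with the promoter sgRNA (SD, n = 6), 1093 ± 418 in Sim1 heterozygous mice (SD, n = 4) and 1216 ± 132 in wild type (SD, n = 5). All groups overlapped, and its log2 fold changes were 0.13 for enhancer sgRNA minus promoter sgRNA (SE 0.227), 0.17 for enhancer sgRNA minus Sim1 heterozygous (SE 0.251) and 0.04 for promoter sgRNA minus Sim1 heterozygous (SE 0.226). Def8 averaged 1893 ± 76.1 with the enhancer sgRNA (SD, n = 4), 1756 ± 95.1 with the promoter sgRNA (SD, n = 6), 1798 ± 115 in Sim1 heterozygous mice (SD, n = 4) and 1882 ± 140 in wild type (SD, n = 5). Its log2 fold changes were 0.10 for enhancer sgRNA minus promoter sgRNA (SE 0.0787), 0.06 for enhancer sgRNA minus Sim1 heterozygous (SE 0.0869) and -0.04 for promoter sgRNA minus Sim1 heterozygous (SE 0.0782). Leaving out 1 library gave Def8 0.027 to 0.094 and -0.073 to -0.0058 in the last 2 of these comparisons.

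**Figure D5:**
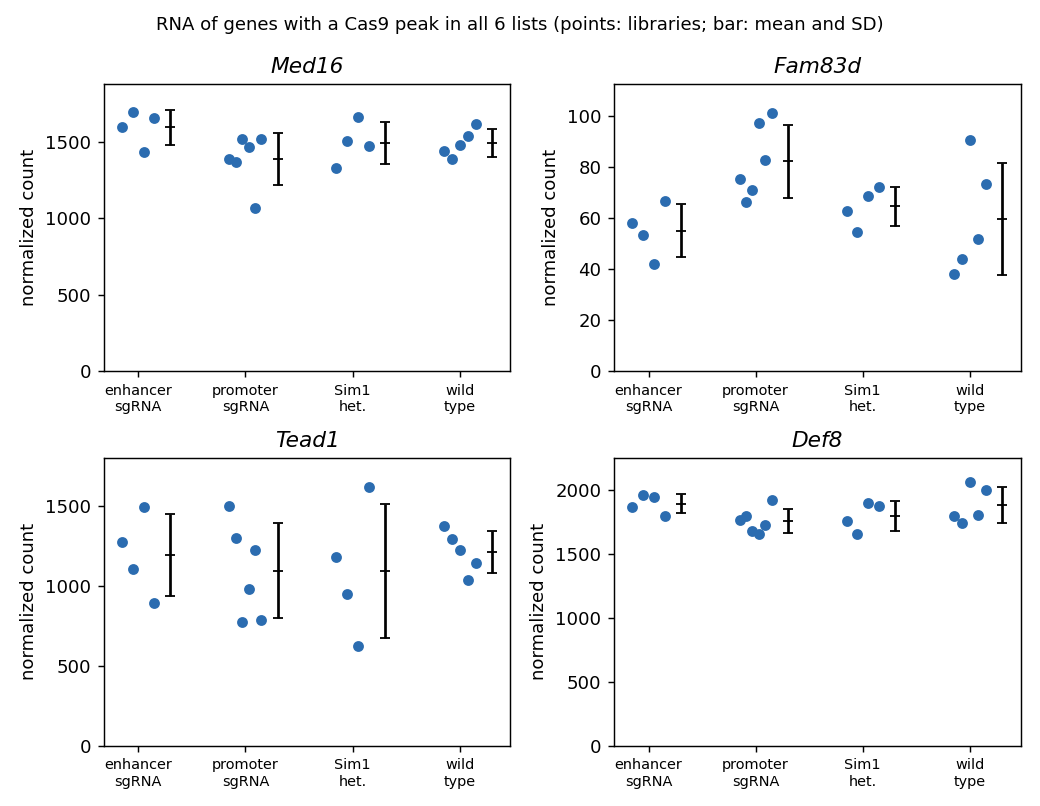
Normalized counts of Med16, Fam83d, Tead1 and Def8 in each library (points), with the mean and SD of each group; axes start at 0. The groups overlap for all 4 genes.

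Among the other genes whose start lay within 1 kb of a peak, Klk6, Ube2d3 and BC016579 are those whose promoter windows are printed. Klk6, made by oligodendrocytes in brain, averaged 223 ± 72.3 normalized counts with the enhancer sgRNA (SD, n = 4), 243 ± 93.1 with the promoter sgRNA (SD, n = 6) and 235 ± 122 in Sim1 heterozygous mice (SD, n = 4). Ube2d3 had 4538, 4392, 4564.5 and 4502 normalized counts with the enhancer sgRNA (F_1, F_2, M_1, M_3), 3653 to 5637 with the promoter sgRNA and 4830.3, 4673, 4839 and 4797 in Sim1 heterozygous mice (F_1, F_3, F_4, M_1). Its enhancer libraries all lay below its Sim1 heterozygous libraries, and the promoter libraries spanned both. How many of all genes separate in this way was not counted, so nothing is read from it. The Ube2d3 peak had a fold of 14.7 with the promoter sgRNA and 7.97 with the enhancer sgRNA, both SpCas9 in hypothalamus. The log2 fold change of Ube2d3 for enhancer sgRNA minus Sim1 heterozygous was -0.10 (SE 0.119, limma adjusted p = 0.804). BC016579 averaged 18.7 ± 1.94 with the enhancer sgRNA (SD, n = 4), 22.1 ± 9.07 with the promoter sgRNA (SD, n = 6) and 20.4 ± 7.88 in Sim1 heterozygous mice (SD, n = 4). The libraries of Klk6 and BC016579 overlapped between these groups. Lepr, whose peak was not within 1 kb of its start, averaged 115 ± 48.1 with the enhancer sgRNA (SD, n = 4), 107 ± 35.4 with the promoter sgRNA (SD, n = 6) and 114 ± 64.9 in Sim1 heterozygous mice (SD, n = 4).

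For enhancer sgRNA minus Sim1 heterozygous, the genes of smallest p with a hypothalamus peak of the enhancer sgRNA included Vwf and Chrnb2, each with a peak in the SpCas9 hypothalamus enhancer list only. Vwf, made by endothelial cells, had 215, 262, 385 and 327 normalized counts with the enhancer sgRNA (F_1, F_2, M_1, M_3) and 371, 328.0, 328 and 422 in Sim1 heterozygous mice (F_1, F_3, F_4, M_1). Its log2 fold change was -0.41 (SE 0.159, limma adjusted p = 0.678), and the groups overlapped. Chrnb2, a subunit of the neuronal nicotinic acetylcholine receptor, had 4532, 5569, 3729 and 4115 with the enhancer sgRNA and 4226, 2092, 3332 and 3372 in Sim1 heterozygous mice. Sim1 heterozygous F_3, the library of fewest neuron marker counts, was the lowest; the log2 fold change was 0.49 (SE 0.196, limma adjusted p = 0.678), and 0.30 without that library.

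For promoter sgRNA minus Sim1 heterozygous they were Gm10800, Stau1 and Asb3. Gm10800 had 0 to 7.4 normalized counts with the promoter sgRNA and 34792 in F_4 of the Sim1 heterozygous mice, whose other libraries had 3.1 to 13.7. Its log2 fold change of -4.73 (SE 1.91, limma adjusted p = 0.934) was -1.60 without Sim1 heterozygous F_4. In the authors' deposited table it has a false discovery rate of 9.34e-05 for the promoter sgRNA, with a log2 fold change of -12.88. It is the only gene under a peak past 0.05 there for that sgRNA, or 0.725% of 138, against 0.0548% of all 16415 genes (9 genes). That comparison is labelled only as promoter sgRNA yes against no, so its reference group may differ from the Sim1 heterozygous mice. Stau1, an RNA-binding protein, was at 0.17 (SE 0.0816, limma adjusted p = 0.934), with 2368 ± 192 normalized counts with the promoter sgRNA (SD, n = 6) and 2093 ± 200.1 in Sim1 heterozygous mice (SD, n = 4). Asb3 was at 0.32 (SE 0.153, limma adjusted p = 0.934), with 519 ± 106 with the promoter sgRNA (SD, n = 6) and 413 ± 48.5 in Sim1 heterozygous mice (SD, n = 4).

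For enhancer sgRNA minus promoter sgRNA they were Fam83d, Gm28438 and Med16. Gm28438, an unprocessed pseudogene whose start lay under a peak in 4 lists, had 3.2, 14.2, 6.3 and 7.3 normalized counts with the enhancer sgRNA and 11.2 to 21.4 with the promoter sgRNA. Its log2 fold change was -1.004 (SE 0.436, limma adjusted p = 0.999), and -0.58 without enhancer F_1; reads of a pseudogene can come from its copies. In the authors' deposited table Olfml3, a secreted olfactomedin-domain protein, is the only gene under a peak past 0.05 for the enhancer sgRNA, with a false discovery rate of 0.0169 and a log2 fold change of -1.05. That is 0.725% of 138 genes, against 0.0427% of all 16408 genes (7 genes). Its peak, with a fold of 12.2, was in the Neuro2A enhancer list only, and it was named after its values were seen. Its log2 fold change was -0.56 for enhancer sgRNA minus Sim1 heterozygous (SE 0.188, limma adjusted p = 0.678). The deposited comparison is labelled only as enhancer sgRNA yes against no, so its reference group may differ.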

How the data were processed

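RNA-seq of hypothalamus and Cas9 ChIP-seq peak lists were used. The submitters' processing notes name DESeq2 1.16.1, MACS2 2.1.1.20160309, STAR 2.5.2b and CASAVA 1.8, with mm9 as build, but 99.9% of 16701 genes matched by identifier overlapped their RefSeq gene in GRCm38, so coordinates are given in that build. Per the file headers, the authors deposited for each peak a pileup signal, a fold enrichment as a ratio, a -log10 q-value and a length. The sources used here do not give how replicates and controls were combined, and ChIP libraries without an sgRNA and inputs were not analysed here. For RNA the authors deposited normalized counts (a signal per gene). Per the column headers they also deposited log2 fold changes and false discovery rates (adjusted p-values), whose model is not stated. In 18 libraries nearly all values, 99.987% in the lowest, were whole multiples of 1 step within 0.0505, giving 14.1 to 56.5 M reads. Wild type F_4 could not be so recovered and was left out of the count tests.

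Peaks were set against genes in Python 3.11 by an overlap of at least 1 base, and intervals are exact binomial. Limma 3.58.1 with a trended prior was fitted in R 4.3.3 on log2(normalized count + 1) for genes averaging at least 1, with all 19 libraries and sex in 1 fit, and adjusted by Benjamini and Hochberg over all genes. The added 1 shrinks folds of genes near 0. Alternatives were edgeR 4.0.16 and DESeq2 1.42.0 on recovered reads, other pseudocounts, filters and scaling, other samples and covariates, and stricter peaks or overlaps. All tools were tested on simulated data. Nothing says that libraries of a group came from separate litters or days, so p-values measure the spread between these animals. The text names the 5 strongest peaks of each list, loci in 3 or more lists, genes whose start lies within 1 kb of a peak and, per comparison, the 3 genes of smallest p with a hypothalamus peak of that sgRNA; some of these are given only as counts or in the plot of shared loci, and some are not reported here. The members and lists were chosen with earlier results of these data known. Overlapping genes share reads, since no strand is stated for the counting.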

Additional observations from a re-analysis of the deposited data

Results flagged for a closer look

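Of 76 sets of 1 gene in 1 group that were checked, 9 had a library far from the rest of its group by Dixon's test, which by chance flags about 1 in 20. Gm10800 reached 34792 normalized counts (F_4 of the Sim1 heterozygous mice), 165 in wild type F_3 and 7.4 in promoter sgRNA M_1. Gm42418 stood at 1620506 in promoter sgRNA M_3 and 3036209 in wild type F_2. Med16 was low in promoter sgRNA M_1 at 1068, and Stau1 was high in promoter sgRNA M_3 at 2728. Dffb was high in enhancer sgRNA M_3 at 189 and Lepr in wild type F_4 at 161.5. Their causes were not tested.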

How the results depend on the processing

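No setting tried called a gene under a peak at an adjusted p under 0.05. Over all genes, where limma called 0 in each comparison, DESeq2 called 4 for promoter sgRNA minus Sim1 heterozygous and 15 for enhancer sgRNA minus Sim1 heterozygous. For enhancer sgRNA minus Sim1 heterozygous a fit without sex called 1, one without enhancer F_1 called 3 and one without promoter M_1 called 1. The main fit did not take the label numbers as pairs. Of same-numbered pairs of libraries from different groups, 12 of 20 had deviations correlated over 0.1 (median 0.30), against 38 of 114 other pairs (median -0.069). Same-numbered libraries thus deviated together more often, which the main fit leaves out. By the labels, same-numbered mice were mostly of the same or similar age, so age and label number cannot be told apart here. Age was a covariate in no fit. With the replicate block 4 genes were called over all genes for enhancer sgRNA minus Sim1 heterozygous, none under a peak, and 7, 12 and 7 genes under peaks passed an unadjusted p of 0.05 in the 3 comparisons (4.73%, 8.11% and 4.73%, against 3.56%, 5.64% and 2.96% of all genes). With the block the median log2 fold changes of the 148 genes were 0.0050, 0.052 and 0.048, with positive values in 52.0%, 64.2% and 60.8% of them. That unadjusted count, in order 6, 14 and 5, became 3, 7 and 13 with only the 2 groups compared (2.03%, 4.73% and 8.78%, against 2.21%, 3.58% and 4.59%). It became 23 for enhancer sgRNA minus Sim1 heterozygous with edgeR (15.5%, against 7.13%), 7 and 8 in the enhancer comparisons with Sim1 heterozygous and promoter sgRNA without the 2 B6 animals (4.73% and 5.41%, against 3.53% and 4.15%), and 3 for enhancer sgRNA minus promoter sgRNA without the 4 libraries of high choroid plexus markers (2.03%, against 1.85%). The promoter median became 0.0056 without the B6 animals, 0.015 without those 4 libraries and 0.026 without the 3 of high Gm42418, and the enhancer minus promoter median 0.089 and 0.063 without those 4 and those 3. Leaving out 1 library gave 3 to 17, 5 to 27 and 4 to 8. Tead1, which passed no test, changed sign: it was at -0.0932 and -0.0785 against Sim1 heterozygous (promoter, enhancer sgRNA) without the 3 libraries of high Gm42418 and at -0.0368 for enhancer sgRNA minus promoter sgRNA without those of high choroid plexus markers. Leaving out 1 library gave Tead1 -0.197 to 0.298, -0.0589 to 0.457 and -0.00311 to 0.271. Both library criteria were chosen after the data were seen. At a fold of at least 5, peaks over genes fell to 3 and 21 for SaCas9 (enhancer, promoter sgRNA) and to 11 for Neuro2A with the promoter sgRNA; the other peak settings kept counts within 1.5 times. The peak lists have no replicates, which limits every comparison between them.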
